A study of Mus musculus with 6 samples.

Results

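Mn1, Mef2d, Nfix, Bcl6b and Creb3l4 are 5 genes for regulators of transcription that held stretches of CpG positions with higher DNA methylation in Idh1 knock-in than in Control blood stem and progenitor cells. They were chosen by the measured genotype difference itself, so that difference is described below without a test. All positions covered in every library were taken from the mm10 extent of each gene plus 2 kb on either side, which gave 599 of 552338 positions. Grouped into 1 kb windows with at least 5 positions, 566 of them formed 24 of the 25123 windows of the whole data set. A window is called rising when its level was at least 10 percentage points higher in the knock-in library in all 3 cell types.

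Enhanced reduced representation bisulfite sequencing, which reads CpG-rich restriction fragments after unmethylated cytosines are converted, was applied to marrow cells of male C57BL/6 mice, 7 to 10 months old. The sort gave long-term haematopoietic stem cells (LT-HSC, Lin- Sca+ Kit+ CD150+ CD48-), short-term haematopoietic stem cells (ST-HSC, the CD48+ counterpart) and multipotent progenitors (MPP, Lin- Sca+ Kit+ CD150-). Wherever 3 values follow each other for a genotype, they are for LT-HSC, ST-HSC and MPP in that order. The knock-in mice (KI) had the genotype IDH1+/lsl VavCre+ and the Control littermates IDH1+/+ VavCre+, so Cre under the blood-cell promoter Vav was present in both; recombination of the lsl allele was not measured here. Each of the 6 combinations was 1 library from marrow pooled from 6 mice, and no group had a replicate. No sequencing lane, as marked in the deposited tables' names, held both genotypes, and lane cannot be told apart from genotype. The labels rest on the sort, and expression of defining markers was not measured. Of 12 genes of mature T, B, myeloid and erythroid cells, 4 had windows, none of them a T cell gene. None of their 6 windows differed between genotypes by 10 points the same way in every cell type. Among all windows 0.896% were higher in KI by that limit and 0.0517% lower, so so few windows cannot show how pure the sort was. Epor from 21961001 was higher in KI by 5.14, 7.05 and 15.3 points, and Elane differed by -2.58, -1.40 and -2.16 points. Cd79a from 24903001 differed by -11.6, -0.16 and 2.12 points, and Epor from 21962001 by -3.58, 0.91 and 3.74. The mean level of the 6 windows was 18.6 to 21% in the Control and 19.9 to 22.0% in the KI libraries.

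Methylated CpGs at a transcription start usually go with a silent gene, whereas CpG-rich starts of active genes are kept free of methylation. In gene bodies methylation is common and its relation to expression is not fixed. The TET enzymes remove methyl groups by oxidation and need 2-oxoglutarate, the product of IDH1. Of the 5 proteins, MN1 is a co-activator known as a fusion partner and as an overexpressed gene in myeloid leukaemia. MEF2D is a MADS-box factor held in check by class IIa histone deacetylases. NFIX belongs to the nuclear factor I family and supports the survival of transplanted stem cells. BCL6B is a BTB zinc finger repressor related to BCL6. CREB3L4 is a bZIP factor anchored in the endoplasmic reticulum and released by proteases.

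For Creb3l4 the measured CpGs lie directly before a listed transcription start, so the sequence is shown here. That start lies inside the gene extent, which reaches 90244582 on the start side, so the CpGs are also within the extent. It covers the 250 bases before a RefSeq start on the minus strand of GRCm38.p6 (the build called mm10), chr3:90243513-90243762, printed 5′ to 3′ in the direction of the gene. Capitals mark the CpGs measured in all 6 libraries, which are 6 of the 9 CpGs in the stretch.

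Creb3l4: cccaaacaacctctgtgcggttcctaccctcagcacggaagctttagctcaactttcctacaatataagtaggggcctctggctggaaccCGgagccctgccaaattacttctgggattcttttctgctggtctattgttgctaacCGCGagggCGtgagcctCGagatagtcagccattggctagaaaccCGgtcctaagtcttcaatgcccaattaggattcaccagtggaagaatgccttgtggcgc

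These CpGs were partly methylated in Control and more methylated in KI. The mean level was 24.5, 49.3 and 25.8% in Control, against 78.7, 64.9 and 62.9% in KI. All 3 KI libraries thus lay above all 3 Control libraries, and the gap was widest in LT-HSC at 54.2 points, against 15.6 in ST-HSC and 37.1 in MPP. The pooled share of methylated reads in LT-HSC was 24.2% in Control (Wilson 95% interval 21.5 to 27.0, summed coverage 915) and 78.5% in KI (73.5 to 82.9, summed coverage 289). Summed coverage adds the reads at each position, so a read over several CpGs counts once for each. Such intervals are therefore too narrow even for counting error, and they hold no spread between animals.

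Within the Creb3l4 stretch, 5 of the 6 positions were higher in KI in each cell type. The CpG 96 bases before the start reached 95.6, 86.4 and 83.5% in KI, from 27.7, 64.7 and 30.3% in Control. Its neighbour 102 bases before the start was the least methylated in 5 of the 6 libraries, ranging from 42.3 to 57.8% in KI and from 0 to 33.7% in Control. Its 0%, in Control MPP, rests on 33 reads. The exception to the rise was the CpG 160 bases before the start, the one position read from the other strand, where KI minus Control in ST-HSC was -4.51 points. From that position alone, the mean rise of the window would be 19.8 points in place of 35.7.

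**Figure D1:**
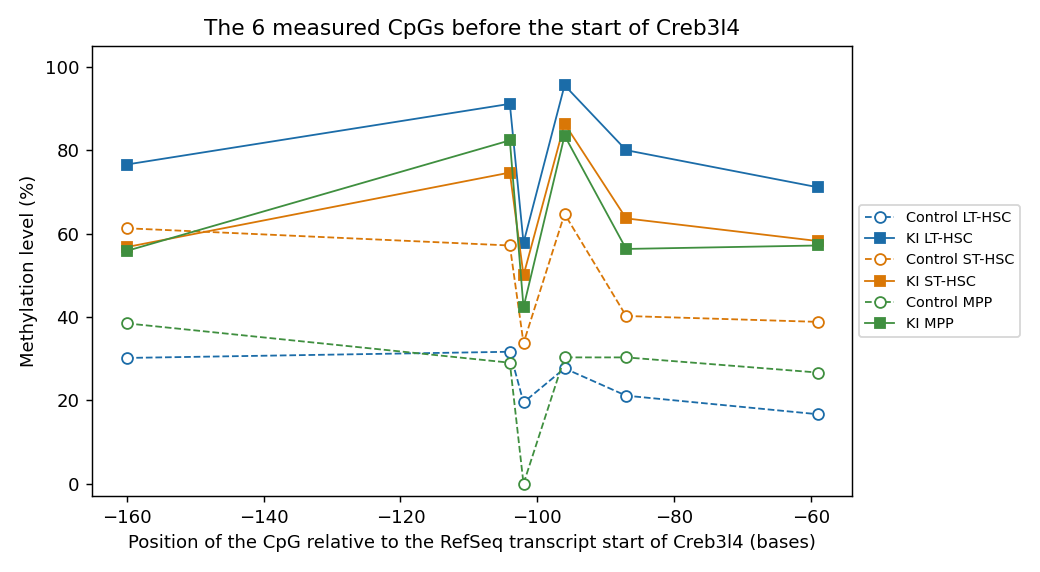
Methylation level (%) of the 6 measured CpGs before a RefSeq start inside the extent of Creb3l4, by their distance from that start in bases. Open circles with dashed lines are Control libraries, filled squares with solid lines KI libraries, and colour gives the cell type. The KI LT-HSC library lies highest at every position, and Control LT-HSC and Control MPP lie below the KI libraries throughout.

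Of the 3 members with a promoter entry in RefSeq, Creb3l4 is the one whose rising positions lie in the 250 bases before a listed start. In the RefSeq table of 32851 promoters, 5417 had at least 5 measured positions in the 250 bases before the start. Of these, 12 (0.222%) were at least 10 points higher in KI in all 3 cell types, and that of Creb3l4 was one of them. A mean Control level of 10 to 90% was found at 166 promoters, 3.06% of those measured, and 9 of the 166 met that limit. The printed stretch holds the CCAAT box (CCAAT) once on each strand, and 33.8% of all promoters of this length hold it on either strand. The cyclic AMP response element (TGACGTCA) and the GC box (GGGCGG) are not in this window and stand in 1.55 and 32.7% of promoters. The ACGT core, which is contained in TGACGTCA and in the E box (CACGTG), and the E box itself, also searched on both strands, are not in it either and stand in 26.9 and 6.02%.

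Across the 5 genes, 8 of the 24 windows were rising, against 225 of 25123 windows in the data set (0.896%), but the genes were picked for such windows. Among the 12 member windows with a mean Control level of 10 to 90%, 8 were rising, and among all 3433 windows in that range 5.8% were. All 8 lie inside the gene extents, as do most of the other member windows, so their place does not set them apart. Their mean Control levels ran from 17.9 to 74.4%. Windows that were not rising also lay in that range, such as Nfix from 84722001 at 51.0%. A mean Control level over 90% leaves no room for a rise by this limit. The 11 windows under 10% in Control, most of them at gene ends, stayed between 0 and 10.2% in every library, with KI minus Control between -5.56 and 5.15 points. The 16 windows that were not rising had median differences of 0.020, 0.89 and 1.06 points, beside medians of 0, 0.70 and 1.18 points over all windows and 2.18, 5.11 and 3.18 points over those at 10 to 90% in Control.

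**Figure D2:**
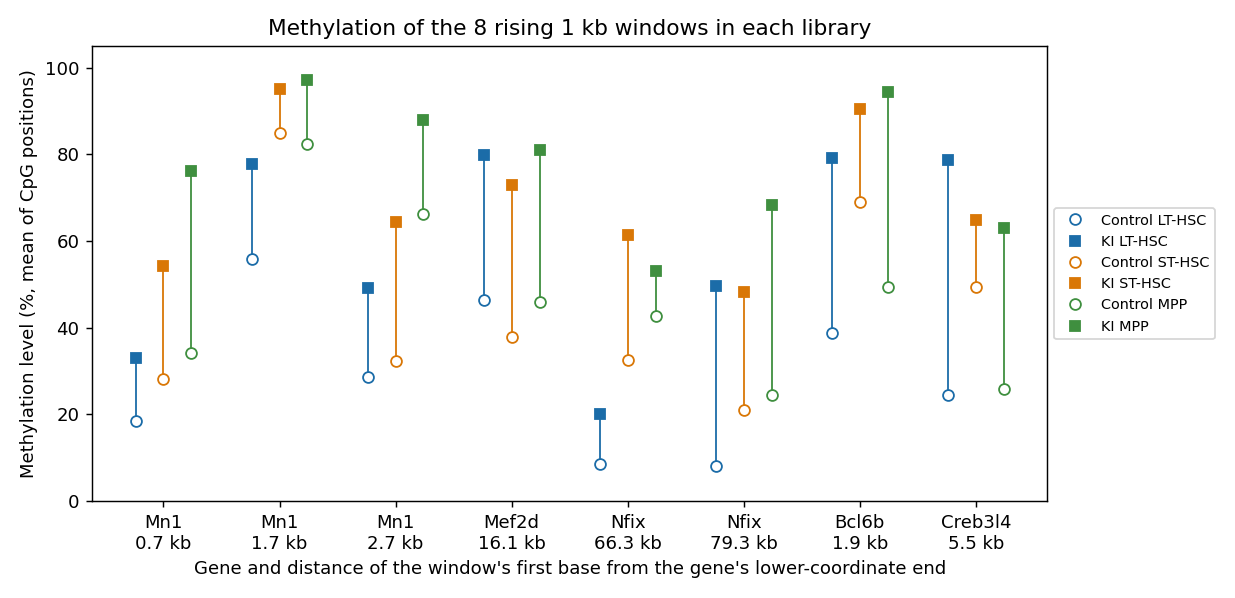
Methylation level (%) of the 8 rising windows in the 6 libraries, as the mean of CpG positions; the horizontal axis gives the gene and the distance in kb of the window from the gene's lower-coordinate end. Open circles are Control and filled squares KI, joined within a cell type; in 4 windows (Mef2d, Nfix at 79.3 kb, Bcl6b and Creb3l4) every KI library lies above every Control library.

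The measured positions of a window often fill only a short stretch of it. In the Nfix window at 79.3 kb they span 32 bases, in that of Bcl6b 86 bases and in that of Creb3l4 103 bases. Positions this close are read by the same fragments and are not separate samples of the gene. Coverage summed over the positions of a rising window ranged from 96 to 2874 per library. Of the 130 positions in the 8 windows, 80 were higher in KI in all 3 cell types and 0 were lower in all 3. The windows were kept for a higher mean of these same positions, so an imbalance in this direction follows from the choice.

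Mn1, on chromosome 5 from 111417300 to 111457030, had the longest measured rising stretch, with 93 positions in 3 adjacent windows starting 0.7 kb inside its lower-coordinate end. In the first, from 111418001 to 111419000, the level was 18.6, 28.1 and 34.1% in Control against 33.0, 54.3 and 76.2% in KI. The genotype gap there was smallest in LT-HSC (14.4 points) and largest in MPP (42.0), and the KI LT-HSC library lay within the Control range. The next window stood at 56.0, 84.9 and 82.4% in Control against 77.8, 95.1 and 97.2% in KI. Its ST-HSC gap of 10.2 points only just met the limit, and its mean gap of 15.6 points fell to 8.11 with at least 20 reads per position and to 4.63 on the reverse strand. The third window had 28.5, 32.3 and 66.3% in Control against 49.2, 64.5 and 87.8% in KI. Single positions were less uniform than the means, as 26 of 39, 7 of 18 and 18 of 36 were higher in KI in every cell type.

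The rise in Mn1 began at a sharp step. In the first 250 bases from the lower end, 76 positions averaged 0.57 to 1.79% per library. From 1250 to 1499 bases, 28 positions averaged 14.4, 23.2 and 27.2% in Control against 27.4, 51.2 and 76.9% in KI. Between 3000 and 3249 bases, 15 positions averaged 15.9, 14.5 and 52.0% in Control against 41.2, 55.7 and 88.7% in KI. All 6 libraries were lower there than between 2500 and 2749 bases, KI MPP the least, from 93.7 to 88.7%. The windows from 111416001 and 111417001, before and at the lower end, were low in all libraries. The former had 5.44, 3.25 and 5.31% in Control against 4.55, 3.21 and 5.17% in KI. The latter had 1.59, 1.17 and 1.10% in Control against 1.31, 1.92 and 2.13% in KI. The window from 111455001, near the far end of the gene, was at 95.7 to 99.8% in all libraries.

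**Figure D3:**
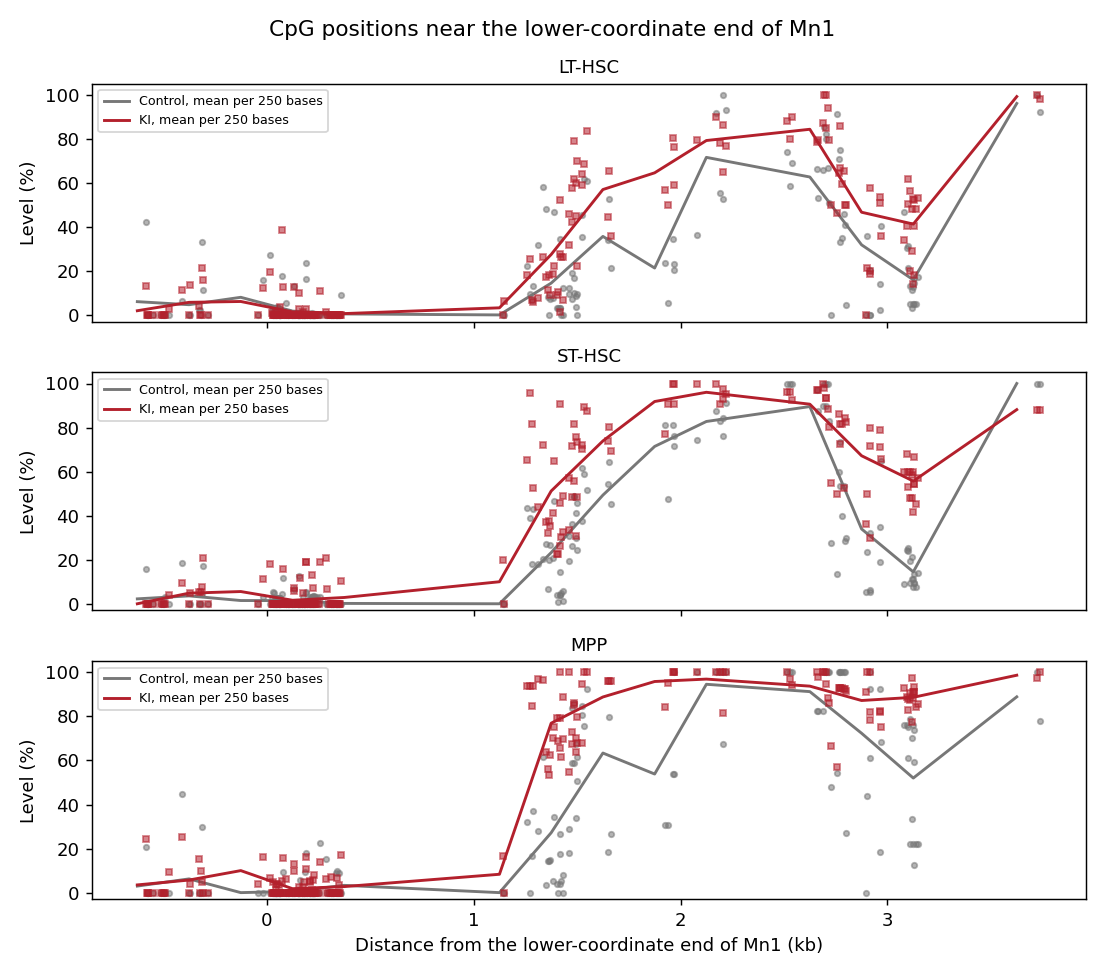
Methylation level (%) of single CpG positions of Mn1 by distance in kb from its lower-coordinate end, 1 panel per cell type; grey circles are Control, red squares KI, and lines join means per 250 bases. The means of both genotypes lie near 0 over the first 499 bases, where single positions reach 38.5%, in KI LT-HSC. At 1250 to 1499 bases the means of the MPP libraries stand at 27.2% in Control and 76.9% in KI.

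The strands of Mn1 can be compared within a library. The positions are those that defined the windows as rising, so the comparison is a description and no separate support. At 10 CpGs of the first rising window that every library read on both strands, the strands differed by a mean absolute 11.9 to 23.3 points per library. KI was higher on the forward and the reverse strand in each cell type, by 22.9 and 30.5 points in LT-HSC, by 27.8 and 26.8 in ST-HSC, by 34.5 and 36.2 in MPP. At 8 such CpGs of the third window the strands differed by 7.52 to 32.2 points, and the rise in MPP was 3.65 points on the forward and 40.2 on the reverse strand. Other rising windows had few such CpGs. The 2 of Bcl6b were higher in KI on both strands in each cell type. With 1 CpG each, KI minus Control was -1.82 points in ST-HSC on the reverse strand of the second Mn1 window. It was -13.7 in MPP on that strand of Nfix from 84771001, and -7.61 in ST-HSC on the forward strand of Nfix from 84784001.

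Nfix, on the minus strand of chromosome 8 from 84704712 to 84801238, had 2 rising windows of 13, both in the part of the gene nearer its higher-coordinate end. The larger rise lay from 84784001 to 84785000, at 8.22, 21.1 and 24.5% in Control against 49.7, 48.2 and 68.2% in KI. All KI libraries lay above all Control libraries there, with pooled shares of 9.38% (Wilson 95% interval 5.01 to 16.9, summed coverage 96) and 47.7% (41.4 to 54.0, summed coverage 237) in Control and KI LT-HSC. Of its 6 positions, 5 were higher in KI in every cell type. On the forward strand, with 1 position, the mean rise of 37.5 points was 18.7, and no position had 20 reads in every library. The adjacent window, from 84785001, differed by -1.14, 6.18 and -0.80 points at Control levels of 57.5 to 79.3%.

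The other rising Nfix window, from 84771001 to 84772000, had Control levels of 8.53, 32.6 and 42.6% and KI levels of 20.03, 61.4 and 53.0%, with 4 of its 9 positions higher in KI in every cell type. Its mean rise of 16.9 points fell to 10.8 with at least 20 reads, where 4 positions remained, and to 10.9 without ST-HSC. The next window, from 84772001 to 84773000, missed the limit by its MPP difference of 8.58 points, at 12.6, 10.9 and 26.2% in Control against 33.9, 39.7 and 34.7% in KI. Both belong to 1 run of 18 positions over 259 bases, from 84771865 to 84772123, that the window border divides. Joined after the data were seen, the run was at 10.5, 21.7 and 34.4% in Control against 27.0, 50.6 and 43.9% in KI, a difference of 16.4, 28.9 and 9.48 points.

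A second near miss in Nfix was the window from 84745001 to 84746000, at 20.8, 28.1 and 37.3% in Control against 45.0, 45.9 and 41.8% in KI, a difference of 24.3, 17.8 and 4.52 points. RefSeq also lists a start inside Nfix, and 2 measured positions lie 27 and 39 bases after it, at 84773383 and 84773371. They were at 0, 8.33 and 75.0% and at 23.8, 25.0 and 75.0% in Control, and at 42.1, 71.4 and 59.3% and at 47.4, 92.9 and 88.9% in KI, on 12 to 27 reads each. The first of these was lower in KI MPP, so they did not move in 1 direction. The partly methylated window from 84722001 had no rise of this kind, at 46.1, 47.1 and 60% in Control against 49.7, 49.0 and 56.2% in KI. Its neighbour from 84723001 lay between 0 and 5.15%. Toward the lower-coordinate end, the windows from 84702001, 84704001, 84705001 and 84706001 were between 0 and 5.56%. At the higher-coordinate end, where the gene starts, the windows from 84799001 and 84800001 were at 1.19 to 3.02% in all libraries.

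**Figure D4:**
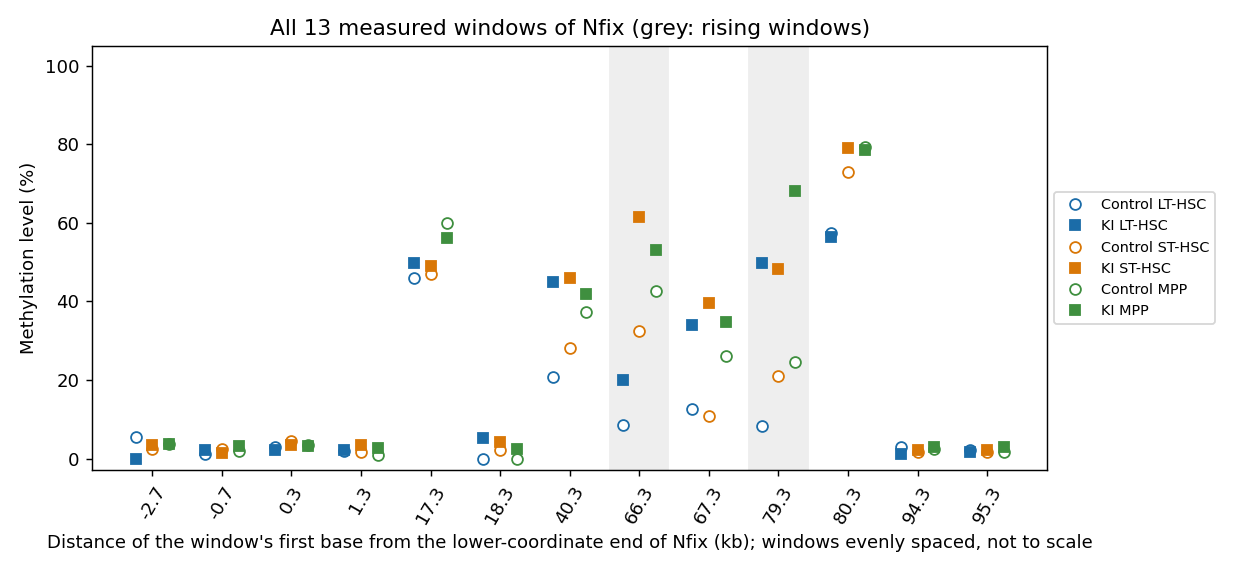
Methylation level (%) of all 13 measured windows of Nfix in the 6 libraries, ordered by distance in kb from the lower-coordinate end and evenly spaced; open circles are Control, filled squares KI, colour gives the cell type and grey bands mark the 2 rising windows. Windows at both ends of the gene lie near 0 in all libraries, and the windows at 40.3, 66.3, 67.3 and 79.3 kb have mean rises of 15.5 to 37.5 points.

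Mef2d, on the plus strand of chromosome 3 from 88141941 to 88172091, had the most even rise across cell types. In the window from 88158001 to 88159000, 16.1 kb into the gene, the level was 46.3, 37.8 and 46.0% in Control against 79.9, 72.9 and 80.9% in KI. The gaps of 33.6, 35.1 and 34.9 points had a mean of 34.5 ± 0.83 (SD across 3 cell types, not across replicates). Only 6 positions stand behind them, with 11 to 25 reads each in KI LT-HSC, and 5 of the 6 were higher in KI in every cell type. The CpG-rich window from 88142001 at the start side of Mef2d, with 60 positions, had 1.63, 1.66 and 2.59% in Control against 1.99, 2.70 and 2.98% in KI.

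Bcl6b, on chromosome 11 from 70224127 to 70229798, had its rising window from 70226001 to 70227000. The Control levels were 38.8, 68.9 and 49.3% and the KI levels 79.0, 90.4 and 94.3%, and all 10 positions were higher in KI in each cell type. The gap was widest in MPP, at 45.1 points, followed by LT-HSC at 40.3 and by 21.5 in ST-HSC, the cell type with the highest Control level. On 5 forward positions alone the mean rise was 31.9 points, and on 5 reverse positions 39.3. The window at the higher-coordinate end, from 70229001 to 70230000, differed by -4.74, -3.93 and 4.30 points, with 6.95, 10.2 and 5.33% in Control against 2.21, 6.32 and 9.64% in KI.

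**Figure D5:**
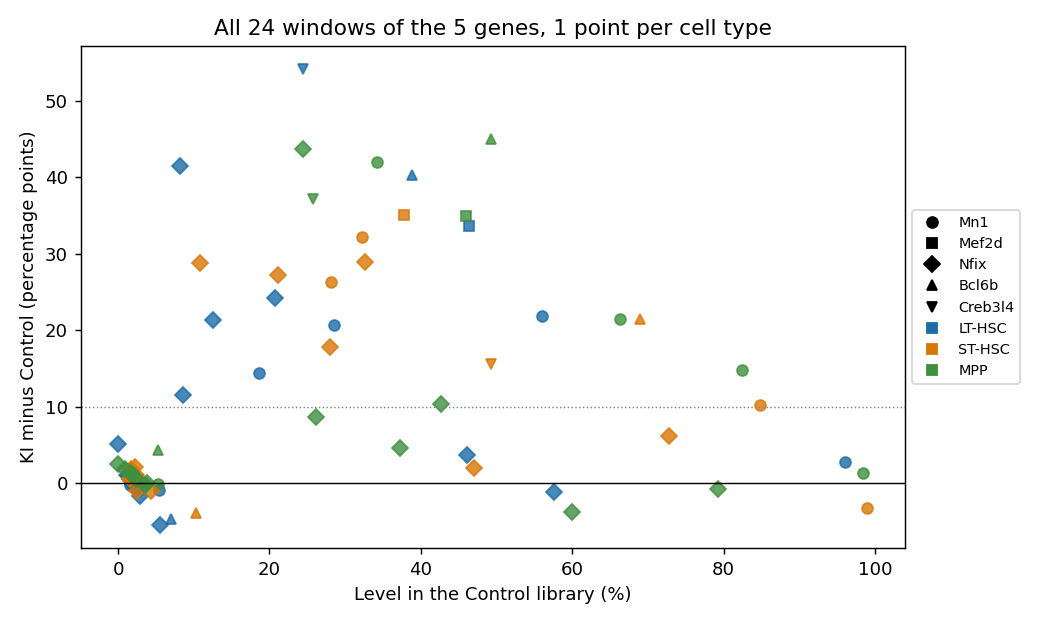
KI minus Control difference in percentage points against the level in the Control library (%), for the 24 windows, with 1 point per window and cell type; symbols give the gene, colours the cell type and the dotted line marks 10 points. The windows with a mean Control level under 10% stay between -5.56 and 5.15 points, and differences above 20 points come from Control levels between 8.22 and 68.9%.

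Outside the 24 windows, 33 measured positions of these genes lay in stretches with fewer than 5. The 13 of Mn1 averaged 92.4 to 99.4% per library, the 5 of Mef2d 3.51 to 13.5%, the 4 of Bcl6b 6.22 to 14.5% and the 11 of Nfix 47.8 to 74.9%.

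The windows nearest the 10-point limit were those of Mn1 from 111419001 and Nfix from 84771001 inside it, with smallest differences of 10.2 and 10.4 points, and Nfix from 84772001 and 84745001 outside it, at 8.58 and 4.52.

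Differences between the cell types were not used to choose the genes. The rising windows of Mn1 and Nfix had higher levels in MPP than in LT-HSC in both genotypes, and those of Mef2d and Creb3l4 did not. In Mn1, MPP exceeded LT-HSC by 15.6, 26.5 and 37.7 points in the 3 rising windows in Control and by 43.2, 19.4 and 38.6 points in KI. The rising Nfix windows were higher in MPP by 34.1 and 16.3 points in Control and 33.0 and 18.5 in KI. In Mef2d the difference was -0.33 points in Control and 1.02 in KI, and in Creb3l4 it was 1.33 and -15.8. Bcl6b stood between, at 10.5 and 15.3 points. In all, 7 of the 24 windows exceeded LT-HSC by 10 points or more in MPP in both genotypes, against 1.41% of all windows. All 7 were among the 12 member windows at 10 to 90% in Control, and 9.73% of all windows in that range met the limit. They include the 3 adjacent Mn1 windows and the adjacent Nfix windows from 84784001 and 84785001, so they are not all separate loci.

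None of these cell type differences passed a test over all windows. With limma, which took both genotypes as 2 libraries per cell type and genotype as a block, 0 of 24 member windows and 0 of 25123 windows (0%) had an adjusted p under 0.05 for MPP against LT-HSC. The lowest adjusted p of a member was 0.300, for the third rising Mn1 window, with a log2 difference in methylation odds of 2.42 (SE 0.46). For the first and second Mn1 windows the log2 differences were 2.13 (SE 0.45) and 3.05 (SE 0.63), and for Nfix from 84771001 it was 2.03 (SE 0.42). At an unadjusted p under 0.05, 6 member windows were higher in MPP and 0 lower. They comprised the 3 of Mn1, both rising ones of Nfix and the Nfix window from 84785001. The share of higher windows at that threshold was 5.36% of all windows and 11.9% of those at 10 to 90% in Control. That range held 12 member windows, among them all 6 of these. In either direction 1870 windows passed the threshold. For ST-HSC against LT-HSC, 0 of 24 member windows and 0 of 25123 passed with limma (0%), and 3 were higher at the unadjusted p (3.28% of all windows), with 1176 windows passing it in either direction. Those 3 were the Mn1 window from 111419001, Nfix from 84771001 and Bcl6b, with log2 differences of 2.55, 1.91 and 1.58.

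Related genes were read in the same way. Of 11 paralogues (other members of the MEF2, NFI and CREB3 families, and Bcl6), 10 had windows. Of their 29 windows, 0 differed by 10 points the same way in every cell type. Among all windows 0.896% were higher and 0.0517% lower by that limit, so the 0 does not set the paralogues apart. The nearest were Nfic from 81433001, higher in KI by 10.4, 18.9 and 7.95 points, and Mef2b from 70166001, by 12.1, 7.37 and 15.4. The 29 windows had median KI minus Control differences of 0.034, 1.37 and 1.74 points. Of 18 partners and regulators, such as class IIa histone deacetylases, co-repressors, retinoid receptors and the proteases that release CREB3 proteins, 17 had windows. Among their 70 windows 2 (2.86%) were at least 10 points higher in KI in every cell type and 0 lower, beside 0.896% higher and 0.0517% lower among all windows, with medians of 0.13, 0.84 and 1.21 points. Rara, the retinoic acid receptor alpha, had one of them, on chromosome 11 from 98951001 to 98952000. The level there was 21.6, 36.1 and 17.5% in Control against 56.1, 48.0 and 31.9% in KI. Bcor, a co-repressor that binds BCL6, had the other, on chromosome X from 12155001 to 12156000, at 15, 16.6 and 24.4% in Control against 29.8, 38.6 and 38.4% in KI.

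Windows of other genes with the most similar 6 levels were found for the leading window of each member, by the root mean square difference over the 6 libraries. For Mn1 these were in B3gnt8 (4.47 points), Pdlim1 (6.01) and Vgll4 (7.00). The Vgll4 window was also the one most like that of Nfix (5.85 points), followed by Psd4 (9.66) and Ncf1 (9.94), the last shared with LOC115490142. Slc39a11 (7.94), Anp32a (8.28) and Ago2 (8.93) were most like Mef2d, and Tinagl1 (7.13), shared with Gm52490, Galntl6 (10.6) and Mgat4b (11.8) most like Bcl6b. For Creb3l4 they were Dedd2 (9.84), Tcf4 (9.91) and Basp1 (10.7).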

How the data were processed

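Per the submitters' processing notes, the tools were Bismark 0.10.0, SAMtools 1.0 and methylKit 0.9.1 and the build was mm10. Settings, removal of duplicates and conversion efficiency: not given in the sources used here. Coverage in the deposited tables is the read count at each cytosine, by strand, and is 10 or more. The deposited levels are the percent of reads with C and T, per the file headers. Coverage summed over positions was 38284759 to 53884467 per library, in which a read counts once for each CpG it spans. Coverage times percent C gave whole methylated reads at 100% of positions, within 0.01% of the coverage.

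Window levels are unweighted means over positions present in all 6 files. Gene extents and promoters came from RefSeq tables of GRCm38.p6, and all 82937 promoter letters at measured positions were the expected C or G. Promoter entries were matched for 3 of the 5 genes. Cell types were compared with limma 3.58.1 in R 4.3.3 on log2((methylated + 1)/(unmethylated + 1)) reads per window, with a variance trend, genotype as a block and Benjamini-Hochberg adjustment over 25123 windows. This script was tested on simulated data. Whether the libraries of a genotype come from 1 pool of mice is not given, so p-values measure only the spread between these libraries. The remaining work used Python 3.11.15.

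Windows were named by rule: all those of the members, with levels in full for rising ones and up to 2 others per gene with the largest mean difference, list genes with a window 10 points apart in all 3 cell types, and the 3 most similar windows per gene. Members and lists were chosen with earlier results of these data known. Alternatives covered coverage, read weighting, strand, window placement and size, the limit, thinning to 10 reads, the prior count and left-out libraries.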

Additional observations from a re-analysis of the deposited data

Results flagged for a closer look

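In the Creb3l4 window the step from LT-HSC to ST-HSC went in opposite directions in the 2 genotypes, 24.9 points in Control and -13.8 points in KI, a difference of -38.6 points. With 1 library per group this difference was not tested.

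Some positions of the rising windows were missing from at least 1 library and so not used above. Their mean level was also higher in KI where both libraries of a cell type covered them, though not at every position. The mean difference over the cell types with such positions was 29.8 points for Bcl6b and 21.5 for the second Mn1 window, both from LT-HSC and ST-HSC only. It was 21.8 for the third Mn1 window, from ST-HSC and MPP only, and 31.7 for the Nfix window from 84784001. In that Nfix window, 15 positions in LT-HSC stood at 8.34% in Control and 28.4% in KI, 13 in ST-HSC at 18.9 and 65.5%, and 6 in MPP at 39.5 and 68.0%. The first rising Mn1 window differed from these. Its 12 to 27 additional positions per cell type lay 707 to 1228 bases from the gene's lower end, on the low side of the step, and differed by 0.15, 3.91 and 5.85 points in LT-HSC, ST-HSC and MPP. Mef2d differed by 18.9 points in ST-HSC, with 2 of 3 positions higher, and by 19.5 in MPP, with 2 of 4. Nfix from 84771001 differed by 27.9 points at 3 positions in MPP. In ST-HSC, 4 of 7 positions of the second Mn1 window and 9 of 14 of the third were higher. In LT-HSC, 6 of 9 of Bcl6b were.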

How the results depend on the processing

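The number of rising windows was 8 of 24 as reported. It fell to 4 with at least 20 reads (17 windows left), to 4 on the forward strand (16 left), to 4 on the reverse strand (15 left), to 4 with at least 10 positions (13 left) and to 4 with a limit of 20 points. Under the 20-point limit these were the Mn1 window from 111420001, Mef2d, Nfix from 84784001 and Bcl6b, and with at least 20 reads the Mn1 windows from 111418001 and 111420001, Bcl6b and Creb3l4. The 20-point limit kept all 24 windows, and the other alternatives named so far left fewer windows. With at least 10 positions, the rising windows of Mef2d, Nfix and Creb3l4 had too few positions to be counted. With at least 20 reads and on the reverse strand, the second Mn1 window was still counted but missed the limit. On the forward strand the third Mn1 window and Nfix from 84771001 did so. The other windows lost with at least 20 reads or on 1 strand had fewer than 5 positions. The number of rising windows was 7 after thinning to 10 reads, 6 in windows shifted by 500 bases and 8 from summed reads. Nfix from 84771001 was the window lost by thinning. A shifted window holds its whole run of 18 positions, which missed the limit with 9.48 points in MPP. The shifted windows also divide the Mn1 stretch differently. From summed reads the Nfix window from 84745001 came in and the second Mn1 window went out. Bcl6b and at least 1 Mn1 window stayed rising under all 8 of these alternatives. All 64 alternative values of the 8 mean differences were above 0, 62 of them by at least 10 points. The windows were defined by this difference and the alternatives re-use the same reads, so these counts are no separate support. The values that leave out 1 cell type could not fall below 10 points. The limma counts of called member windows stayed at 0 under all alternatives run. Over all windows limma called 25 with a prior count of 5, 8 with at least 10 positions and 375 without KI MPP, a fit in which the lone MPP library is assumed to vary like the others. The Nfix window from 84784001 gave no value at 20 reads. With at least 20 reads the mean rise of the second Mn1 window was 8.11 points and that of Nfix from 84771001 was 10.8, and that of Mef2d, on 2 positions, was 36.4.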
